A study of Mus musculus with 8 samples.

Results

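Distal myogenin intervals that were called with bexarotene and not in control, at sites where p300 was also called, comprised 1046 of the 6642 intervals in the bexarotene myogenin list (15.7%). C2C12, a myoblast line derived from C3H mouse muscle, was differentiated for 24 h in low-serum medium without (Ctl) or with (Bex) 50 nM bexarotene, a rexinoid that activates retinoid X receptors, and the agent was added when the medium was changed. Each antibody, against myogenin or p300, gave 1 ChIP-seq library per condition, so the lists hold no replicate error and describe a single cell line. The loci were chosen by their presence and absence in these lists: a myogenin interval of the Bex list was kept when it shared no base with an interval of the Ctl list, when its center lay more than 1 kb from every protein-coding transcription start site (TSS) of the mm9 annotation, and when it overlapped a p300 interval of either list by at least 1 bp. Of the 6642 intervals 3645 had no overlap with control, 3082 of these were distal, and 1046 remained after the p300 criterion. The counts that follow from this choice are given as a description. Neither myogenin nor p300 lists carry tag counts, so a locus that is unique to a list was called there and not in the other, and the depth behind each call is unknown.

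Myogenin is a basic helix-loop-helix factor that binds E-boxes as a dimer with E-proteins and drives the later steps of muscle differentiation. p300 is a histone acetyltransferase that acts as a coactivator and marks active enhancers, where bZIP factors of the AP-1 family, Runx factors and Tead factors often bind beside lineage factors. Retinoid X receptors bind repeats of the element AGGTCA together with partner nuclear receptors.

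The sequences below show the motifs on which the comparisons rest. They are plus-strand mm9 sequence, and capitals mark the E-box cores (the palindrome CAGCTG, or CACCTG on either strand) and the bZIP element TGACTCA or, on the opposite strand, TGAGTCA. Each line gives the gene of the nearest TSS. The first set is drawn from the loci whose nearest TSS belongs to a gene of the muscle and signaling lists, taking those with the most E-boxes in each p300 class. The nearest TSS can be far, at -307733 bp for Btg1, -195241 bp for Igfbp3 and 233150 bp for Gadd45g, against -6811 bp for Actc1 and 19432 bp for Myom1. At the Actc1 locus, p300 was called with bexarotene only. At Btg1 and Igfbp3 it was called in both conditions, and at Myom1 and Gadd45g in control only. Btg1 and Myom1 are shown by their central 100 bp and the others by the whole interval, since the central 100 bp of Igfbp3 and Gadd45g hold no E-box. Tnni1 has none there either, and at 586 bp its interval is longer than the 300 bp printed at most.
Actc1, chr2:113886012-113886179: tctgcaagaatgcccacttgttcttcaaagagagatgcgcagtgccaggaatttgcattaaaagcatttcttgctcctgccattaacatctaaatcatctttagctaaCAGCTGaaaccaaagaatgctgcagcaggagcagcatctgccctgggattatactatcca
Btg1, chr10:95771852-95771951: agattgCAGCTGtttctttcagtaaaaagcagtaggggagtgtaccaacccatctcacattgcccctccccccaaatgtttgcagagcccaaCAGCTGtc
Igfbp3, chr11:7309033-7309302: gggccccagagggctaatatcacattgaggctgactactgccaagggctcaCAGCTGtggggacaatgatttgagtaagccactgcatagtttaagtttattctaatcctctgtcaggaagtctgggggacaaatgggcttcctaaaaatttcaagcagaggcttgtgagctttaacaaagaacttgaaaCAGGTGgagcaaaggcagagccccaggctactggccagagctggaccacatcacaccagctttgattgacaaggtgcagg
Myom1, chr17:71388290-71388389: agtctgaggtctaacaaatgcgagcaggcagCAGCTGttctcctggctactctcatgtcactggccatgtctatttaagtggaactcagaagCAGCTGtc
Gadd45g, chr13:52175061-52175333: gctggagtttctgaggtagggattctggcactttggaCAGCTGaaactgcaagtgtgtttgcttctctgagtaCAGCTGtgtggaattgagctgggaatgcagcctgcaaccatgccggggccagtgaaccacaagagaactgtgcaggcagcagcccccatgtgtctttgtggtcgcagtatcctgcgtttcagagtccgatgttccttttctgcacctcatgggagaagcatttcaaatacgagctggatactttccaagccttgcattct

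The second set shows other arrangements of the same motifs. Agap1 is the longest locus with p300 called with bexarotene only (456 bp, central 100 bp shown). Acsl3, Rbpj and Cep63 are the loci with consecutive E-boxes separated by 6 bp (Acsl3) or 4 bp (Rbpj and Cep63), and Cep63 holds a further E-box that abuts the pair. Igfbp2 and Tgm2 hold E-boxes together with a bZIP site, and in Tgm2 the bZIP site and an E-box share bases. These last 5 loci were picked after their sequences were seen.
Agap1, chr1:91406592-91406691: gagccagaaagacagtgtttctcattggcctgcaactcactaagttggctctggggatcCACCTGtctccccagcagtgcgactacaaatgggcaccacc
Acsl3, chr1:78607715-78607814: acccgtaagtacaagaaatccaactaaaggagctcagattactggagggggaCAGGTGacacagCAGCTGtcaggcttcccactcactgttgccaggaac
Rbpj, chr5:53948965-53949064: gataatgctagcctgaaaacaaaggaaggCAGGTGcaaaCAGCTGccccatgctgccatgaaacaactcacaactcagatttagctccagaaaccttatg
Cep63, chr9:102534735-102534834: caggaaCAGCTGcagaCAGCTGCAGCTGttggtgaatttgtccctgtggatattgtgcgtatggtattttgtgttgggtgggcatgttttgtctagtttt
Igfbp2, chr1:72830005-72830172: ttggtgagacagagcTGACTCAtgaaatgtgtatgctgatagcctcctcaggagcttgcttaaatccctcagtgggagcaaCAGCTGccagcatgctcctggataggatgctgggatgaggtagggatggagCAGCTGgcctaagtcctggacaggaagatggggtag
Tgm2, chr2:157927639-157927806: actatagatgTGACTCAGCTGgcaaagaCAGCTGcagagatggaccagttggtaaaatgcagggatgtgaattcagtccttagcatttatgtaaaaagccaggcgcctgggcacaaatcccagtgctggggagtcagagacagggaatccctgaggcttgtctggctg

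To establish in which condition p300 occupied these loci, each p300 list was examined separately. p300 was called in control only at 452 loci (43.2%, 95% Wilson interval 40.2 to 46.2), in both conditions at 519 (49.6%, 46.6 to 52.6) and with bexarotene only at 75 (7.17%, 5.76 to 8.90). Thus 971 of the 1046 loci (92.8%) carried p300 in untreated cells, in which no myogenin interval was called there, and 594 (56.8%, 53.8 to 59.8) carried p300 in treated cells. The share with control p300 was similar in the other distal sets with p300, at 89.4% for shared and 93% for control-only myogenin. The p300 lists differ in size, with 22051 intervals in control and 9154 with bexarotene, and this difference moves with the class counts. These intervals cover counting error over loci only, and p-values are not given because neither loci nor libraries here are replicates of a condition.

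Distal myogenin intervals of the Bex list that were shared with control overlapped p300 of either list at 53.1%, those unique to bexarotene at 33.9% and those unique to control at 31.5%. Among intervals with p300, the share with p300 in the Bex list was 56.8% at the bexarotene-only loci, 71.1% at shared intervals and 53.8% at intervals unique to control. The bexarotene-only loci thus stood nearer to the control-only set than to the shared set in both shares, which use the same lists as the choice of the loci and are a description.

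p300 present in control was found again with bexarotene more often under these loci than at distal sites without myogenin. Of the 967 control p300 intervals under the loci, 55.9% (52.8 to 59.0) overlapped a p300 interval of the Bex list, against 29.2% (28.5 to 29.9) of 16876 distal p300 intervals that overlapped no myogenin interval of either list, a difference of 26.8 percentage points (95% Newcombe interval 23.6 to 29.9). Longer p300 intervals were found again more often in every set, and p300 was longer under the loci (median 302 bp) than at distal sites without myogenin (226 bp). The difference was therefore read within length classes. It was 6.93 points (2.66 to 12.5) for p300 intervals of the smallest length, 21 points (15.1 to 27) for those that were longer but under 300 bp, and 20.1 points (16.0 to 23.8) for those of 300 bp or longer. Control p300 under the other myogenin sets was also found again more often than p300 without myogenin. p300 under myogenin unique to control was found again at 57.6%, and p300 under shared myogenin at 68.2% (differences -1.67, -6.93 to 3.65, and -12.2, -16.2 to -8.17). Both p300 lists entered the choice of the loci, so these differences are a description.

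**Figure D1:**
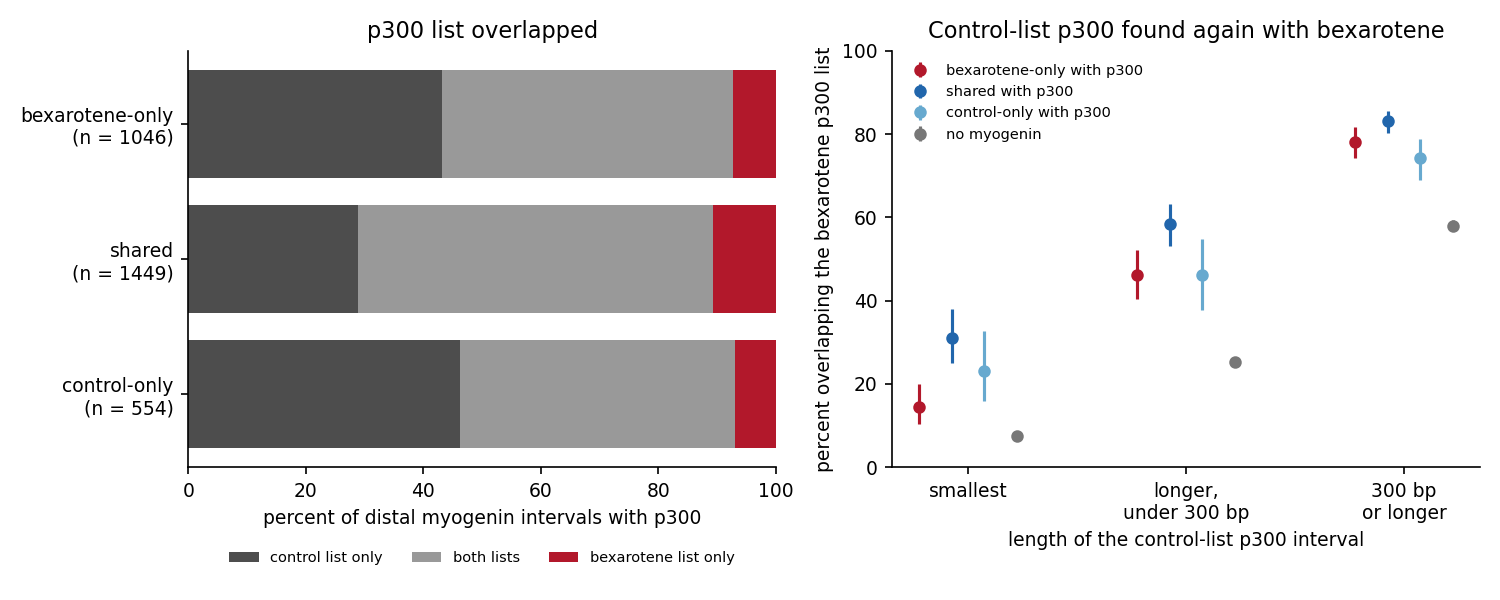
Left, percent of distal myogenin intervals with p300 whose p300 was called in the control list only, in both lists or in the bexarotene list only, for each myogenin class. Right, percent of control-list p300 intervals that overlap the bexarotene p300 list (y axis) by length of the p300 interval (x axis), with 95% Wilson intervals as bars; p300 under bexarotene-only myogenin sits above distal p300 without myogenin in each length class (14.5% against 7.57% at the smallest length, 78.1% against 58.0% at 300 bp or longer).

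Conversely, of the 1303 distal p300 intervals unique to bexarotene, 75 (5.76%, 4.62 to 7.16) lay under one of these loci, compared with 425 of 13005 distal p300 intervals unique to control (3.27%, 2.98 to 3.59). The same shares were 12.4% and 3.18% under shared myogenin and 2.53% and 1.65% under control-only myogenin, so the higher share of p300 unique to bexarotene was found under each myogenin set. The loci were chosen by overlap with these p300 lists, which differ in size, and the shares are a description.

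Where p300 was called in both conditions, the control interval was the longer one at 462 of 519 loci (89.0%), with a median of 387 bp against 242 bp with bexarotene. Shared myogenin loci gave a like pattern, with control p300 longer at 86.0% of 877 loci. p300 at the 75 loci called with bexarotene only was short, with a median of 158 bp, and 69.3% of these intervals had the smallest length in that list. Distal bexarotene p300 without myogenin had the same median of 158 bp, with 51.0% at the smallest length. That set is unlike the 75, since 83.1% of it also overlapped control p300. The overlap was 72.3% at the smallest length, against 92.9% and 98.1% for longer intervals. By count, 5075 of its 6109 intervals overlapped control p300, as did 2253 of its 3115 intervals of the smallest length. Its part called with bexarotene only therefore has a share at the smallest length above both 51.0% and 69.3%. Against that part, the smallest length was not more frequent at the 75 loci. At control-only p300 loci the median was 240 bp, from the other list. The distance between the myogenin center and the p300 center had a median of 69.0 bp for control p300 and 59.0 bp for bexarotene p300. The myogenin center lay inside the p300 interval at 84.8% of loci with control p300 and at 78.5% of loci with bexarotene p300.

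The myogenin intervals themselves were short. The median length was 168 bp, the smallest in the Bex list, the upper quartile was 228 bp and the longest was 784 bp. In total 57.8% (54.8 to 60.8) had the smallest length, compared with 73.3% of the 2036 distal bexarotene-only intervals without p300 (difference -15.4 points, -19.0 to -11.9) and 17.9% of the 1449 shared distal intervals with p300. At the edges of the selection, the locus nearest to a TSS lay 1034 bp from Plin3, and an interval 997 bp from Plekhb1 was the last one left out. A control myogenin interval lay within 200 bp of 33 loci, abutting in the closest case. The smallest overlap with p300 was 2 bp, 51 loci overlapped p300 by under 50 bp, and 109 intervals counted as without p300 had a p300 interval within 200 bp.

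With regard to position, 524 loci (50.1%) had their center in an intron, 23 (2.20%) in an exon and 499 (47.7%) between genes, and 182 (17.4%) lay in a first intron. The median distance to the nearest TSS was 29.7 kb (quartiles 10.5 and 67.2), compared with 17.4 kb for bexarotene-only distal intervals without p300, 32.9 kb for shared intervals with p300 and 27.4 kb for control-only intervals with p300. Only 12.1% lay between 1 and 5 kb from a TSS, against 22.8% of those without p300 (difference -10.7 points, -13.3 to -7.94). The shared set was at 12%, and the difference from it was within counting error (0.133 points, -2.42 to 2.77), while the control-only set with p300 was at 15.7% (-3.56, -7.31 to -0.0571).

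**Figure D2:**
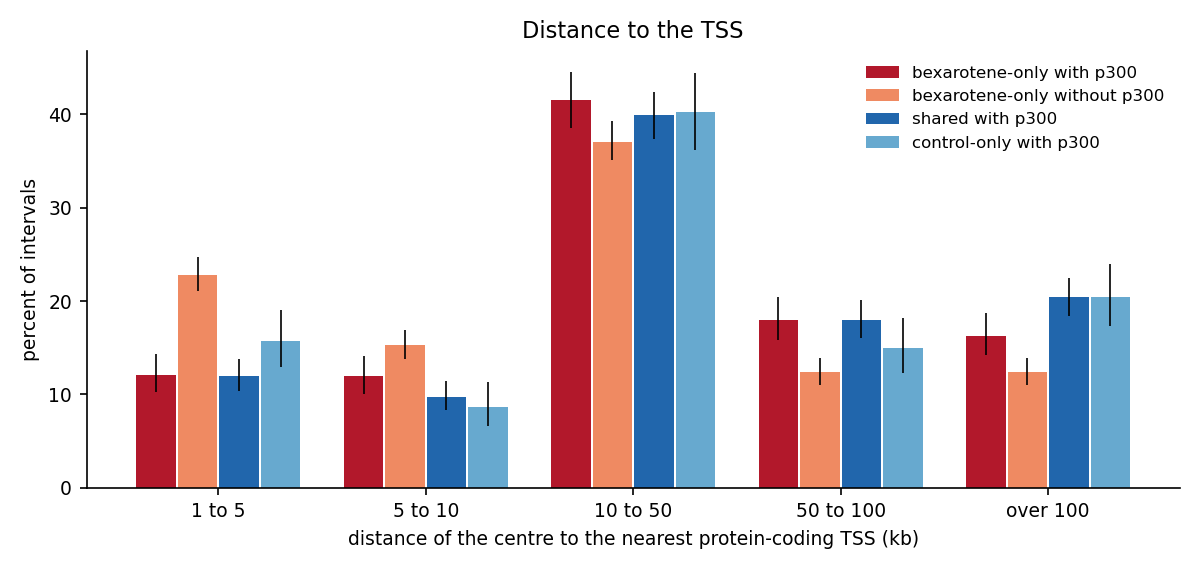
Percent of intervals (y axis, bars start at 0, error lines are 95% Wilson intervals) by distance from the center to the nearest protein-coding TSS in kb (x axis) for the 4 distal myogenin sets. Bexarotene-only intervals with p300 have 12.1% between 1 and 5 kb and bexarotene-only intervals without p300 have 22.8%.

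Sequence was not used to choose the loci, and the motifs around the myogenin center were compared with flanking sequence 2 kb away on each side, where free of myogenin intervals. Both strands were searched. E-boxes were sought within 50 bp of the center as CAGCTG, which is palindromic, or as the non-palindromic CACCTG. At least 1 of these was found at 53.6% of loci (50.6 to 56.6), 4.50 times the 11.9% of flanking windows. The palindromic core was present at 45.3% (flanks 5.08%), which equaled the 45.3% of bexarotene-only distal intervals without p300 (difference -0.0185 points, -3.72 to 3.70). The non-palindromic core was present at 11.6% (9.77 to 13.6) against 21.7% without p300, a difference of -10.1 points (-12.7 to -7.43), with 7.12% and 7.36% in the flanks. This split of the E-box was made after the E-box values had been seen.

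The lower share of non-palindromic E-boxes was present among intervals of the smallest length (11.2% and 19.9%, difference -8.67 points, -11.8 to -5.28) and among longer ones (12% and 26.7%, -14.6, -19.4 to -9.75). Shared distal intervals with p300 had the non-palindromic core at 18.3% (difference -6.72 points, -9.47 to -3.90) and the palindromic core at 58.7%. Control-only intervals with p300 had 10.3% and 26.4%. For either core together, the loci with p300 were below those without (53.6% and 58.8%, difference -5.21 points, -8.91 to -1.51). This difference was -6.16 points (-10.8 to -1.44) among intervals of the smallest length and -9.96 points (-15.9 to -4.02) among longer ones. It was within counting error when the myogenin center was required to lie inside the p300 interval (-0.988, -4.86 to 2.85). That setting kept 887 loci and counted intervals whose p300 missed the center as without p300, so both sets changed. The difference was -1.19 points over the whole interval (72.0% and 73.2%) and 1.11 points in the opposite direction for any CANNTG (79.2% and 78.0%). The loci are longer than intervals without p300 (upper quartiles 228 and 210 bp), so the whole-interval search covers more of their sequence.

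Pairs of E-boxes were also less frequent than at intervals without p300 and at shared intervals with p300. They were more frequent than at control-only intervals with p300 (difference 5.91 points, 3.23 to 8.37). Of all loci, 10.4% held 2 or more E-boxes within 50 bp of the center, compared with 18.3% without p300 (difference -7.90 points, -10.3 to -5.33), 19.7% at shared intervals with p300 and 4.51% at control-only intervals with p300. These shares depend on having any E-box. Among intervals with 1 or more, 19.4% of the loci held 2 or more. The share was 31.1% without p300 (-11.7, -15.8 to -7.39), 28.2% at shared intervals (-8.78, -13.0 to -4.38) and 13.0% at control-only intervals (6.48, 0.208 to 11.8). Consecutive E-boxes 4 bp apart were found at 2 loci and 6 bp apart at 1 locus, which are the Rbpj, Cep63 and Acsl3 sequences printed above. These spacings were found at 7 and 21 of the 2036 intervals without p300 and at 7 and 18 of the 1449 shared intervals with p300. A spacing of 7 bp was the most frequent under 10 bp, at 11 loci.

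The bZIP site TGACTCA or TGAGTCA, the element of AP-1 factors, was found within 100 bp of the center at 21.9% of loci (19.5 to 24.5), 6.74 times the 3.25% of flanking windows. Without p300 the share was 9.72% (8.51 to 11.1), a difference of 12.2 points (9.41 to 15.0). Both the share at the loci and the difference were lower in a window of 50 bp, as given in the closing section. Within 100 bp, the difference was 14.3 points (10.7 to 18.1) among intervals of the smallest length and 8.66 points (4.17 to 13.3) among longer ones. Intervals with p300 that were shared or control-only had 17.9% and 19.1%, and of these the shared set lay below the loci by more than counting error (difference 4.02 points, 0.857 to 7.24). Over the whole interval the loci and the shared set had 20.9% and 21.8%, within counting error (-0.871, -4.09 to 2.42). Shared intervals are longer (median 266 bp against 168 bp), so that search covers more of their sequence and is not a like comparison. The whole-interval difference from intervals without p300 was 11.5 points (8.74 to 14.3). The Runx element TGTGGT was found at 36.7% of loci and at 25.9% without p300 (difference 10.8 points, 7.31 to 14.3). The Tead element GGAATG was found at 21.8% and 17.4%. Differences from the other intervals with p300 were within counting error for both, with Runx at 37.7% (shared, difference -0.970, -4.79 to 2.88) and 32.5% (control-only, 4.22, -0.709 to 9.01) and Tead at 22.9% (-1.12, -4.39 to 2.22) and 18.6% (3.21, -0.997 to 7.19). GC content was similar, with a median of 49.5% at the loci and 50.0% without p300, and its part in these differences was not tested.

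The nuclear receptor element AGGTCA was found at 12.6% of loci, close to the 11.6% of flanking windows. At intervals without p300 its share was 15.7% (difference -3.10 points, -5.59 to -0.467), with 12.5% in their flanks. No locus of the 1046 held DR1, the direct repeat of AGGTCA with 1 base between, which allows a share of up to 0.366% by the Wilson interval, and none of 2062 flanking windows did. The Mef2 element was at 3.54%, with 3.35% in the flanks. The absence of these letters says only that they are not in the windows searched.

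**Figure D3:**
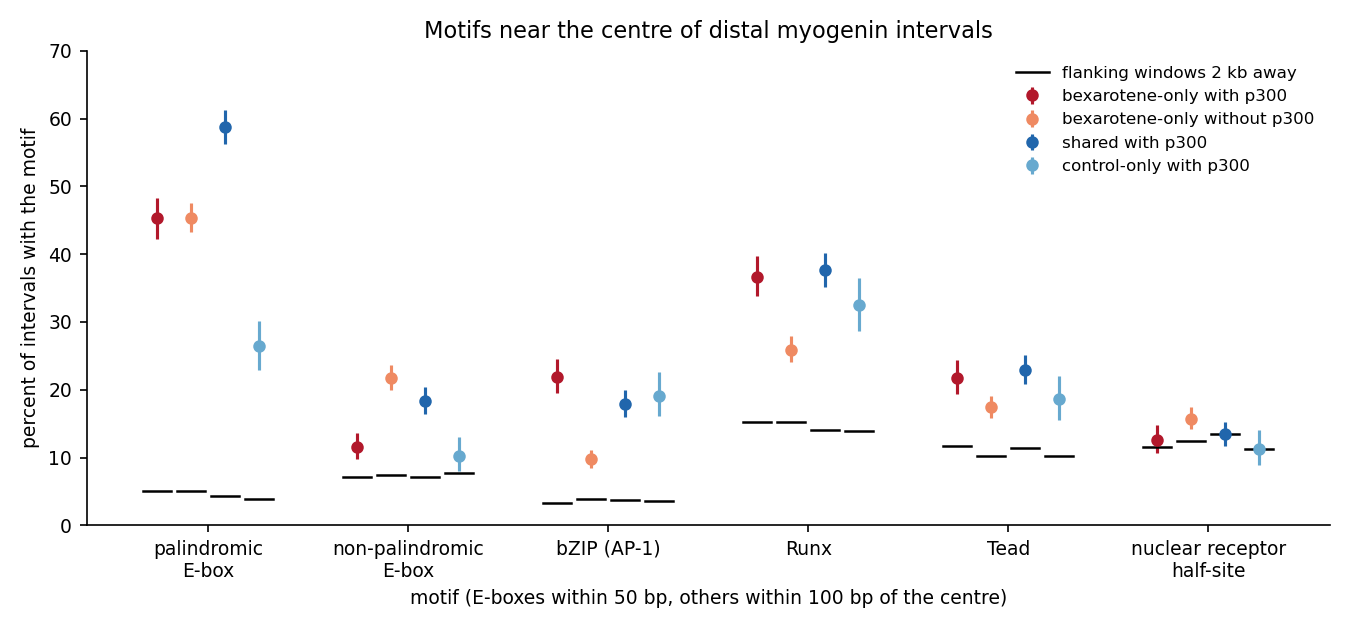
Percent of intervals with each motif (y axis) for the 4 distal myogenin sets (points with 95% Wilson intervals) and for windows 2 kb away (black lines). Bexarotene-only intervals with and without p300 share the palindromic E-box at 45.3%, while the non-palindromic E-box is at 11.6% and 21.7%, the bZIP site at 21.9% and 9.72% and the Runx element at 36.7% and 25.9%.

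E-boxes and bZIP sites were counted together within 100 bp of the center. Both were present at 159 loci (15.2%), an E-box alone at 589 (56.3%), a bZIP site alone at 70 (6.69%) and neither at 228 (21.8%). A bZIP site was about as frequent with an E-box (21.3%, 18.5 to 24.3) as without one (23.5%, 19.0 to 28.6). Where both were present, the nearest pair had a median distance of 34.5 bp between centers (quartiles 17.5 and 62.0). Because CAGCTG can share bases with TGACTCA, as at Tgm2, some pairs overlap.

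The density of motifs was compared between centers over the 519 loci with p300 in both conditions. In the central 80 bp, E-boxes numbered 0.650 per 100 bp at the myogenin center, 0.638 at the bexarotene p300 center and 0.506 at the control p300 center, and 46.6% (42.4 to 50.9), 44.7% (40.5 to 49) and 35.5% (31.5 to 39.7) of loci held one. For bZIP sites the densities were 0.154, 0.214 and 0.207, and 11.9% (9.43 to 15.0), 16.0% and 16.0% (both 13.1 to 19.4) of loci held one. The intervals overlap for the bZIP site, and for the E-box at the myogenin and bexarotene p300 centers. All centers are of the same 519 loci, so this overlap does not show whether the paired shares differ. No paired comparison of centers was made. The windows share bases, so these values are a description.

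**Figure D4:**
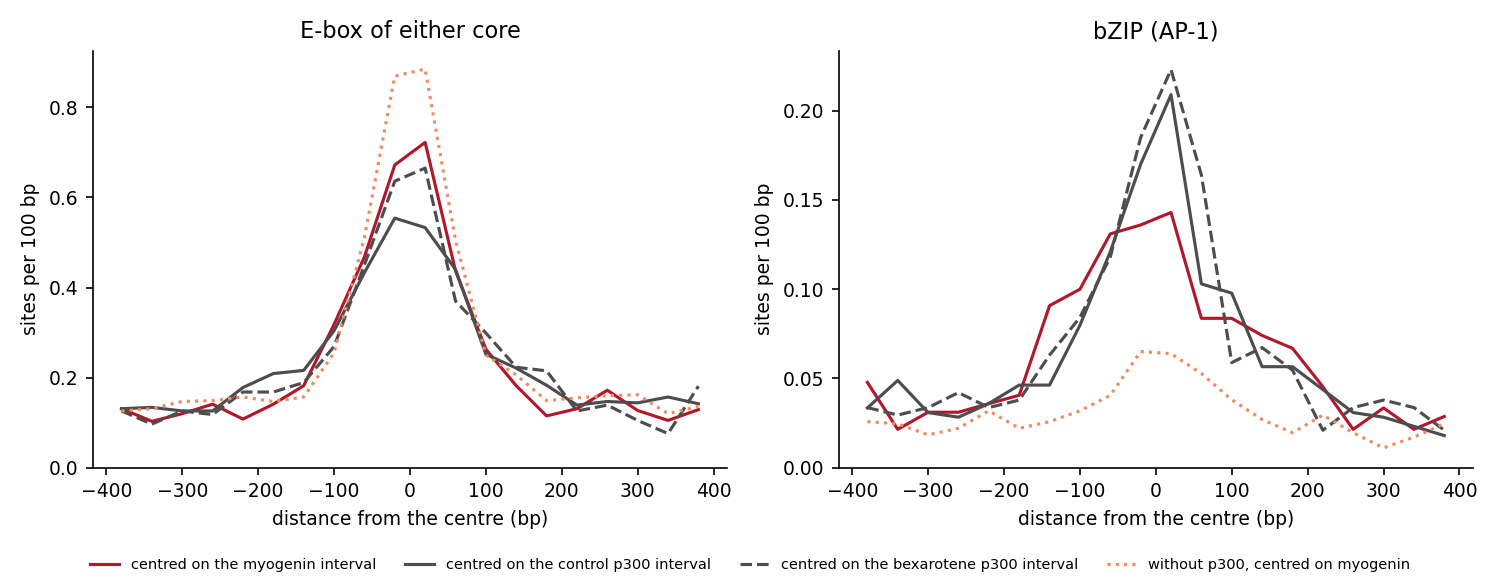
Motif sites per 100 bp (y axis) in bins of 40 bp by distance from the center (x axis) at bexarotene-only distal myogenin loci with p300, centered on the myogenin interval or on the p300 interval of either list, and at bexarotene-only distal loci without p300. The lines rest on 1046, 971 and 594 loci with p300, so they do not compare centers of the same loci. E-boxes (left) reach 0.697 per 100 bp in the central 80 bp of the myogenin profile and bZIP sites (right) 0.140.

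Seen from p300, 66.0% of control p300 intervals under the loci had an E-box within 100 bp of the p300 center, compared with 27.4% of distal p300 intervals without myogenin (difference 38.6 points, 35.5 to 41.6). The bZIP site was less frequent under the loci, at 24.4% against 31.4% (difference -7.02, -9.71 to -4.13). For bexarotene p300 the E-box shares were 67.5% and 30.9% (36.6, 32.5 to 40.4), and the bZIP shares 28.1% and 31.5% did not differ beyond counting error (-3.39, -7.06 to 0.539). Control p300 under the other myogenin sets had an E-box at 79.2% (shared) and 52.3% (control-only) and a bZIP site at 20.7% and 26.0%, so the higher E-box share and the lower bZIP share were found under each myogenin set.

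The p300 classes differed among themselves. Loci with p300 called with bexarotene only had an E-box within 50 bp at 68.0% (51 of 75, 56.8 to 77.5), against 52.7% with p300 in control only (difference 15.3 points, 3.24 to 25.9) and 52.4% with p300 in both (15.6, 3.60 to 26.0). The Tead element was rarer in this class, at 10.7% against 24.5% with p300 in both (difference -13.8, -20.3 to -4.15). It was also rarer in the flanks of this class, at 6.94% against 12.6% for p300 in both. The Mef2 element was found at 7 of the 75 loci (9.33%, 4.59 to 18), against 3.10% in control only (difference 6.24 points, 1.08 to 15.0) and 3.08% in both (6.25, 1.16 to 15.0), with 4.17% in the flanks of the 75. The bZIP site was most frequent with p300 in both conditions, at 25.2% against 18.6% in control only (difference 6.66 points, 1.43 to 11.8). The same comparison for the Runx element, 39.7% and 33.8%, was within counting error (5.84, -0.245 to 11.8). In all 30 such differences were computed, for 3 pairs of classes and 10 motifs that in part contain each other, and the intervals are not adjusted for their number.

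The 75 loci with p300 called with bexarotene only had 75 different nearest genes on 19 chromosomes. A control p300 interval lay within 1 kb of 16 of them and within 10 kb of 41, and the median gap was 7.65 kb. Of these loci 11 held 2 or more E-boxes within 50 bp of the center. They include the locus in intron 1 of Rbpj, the DNA-binding partner of Notch (chr5:53948904-53949127), and a locus in intron 4 of Bmpr1a, a bone morphogenetic protein receptor (chr14:35255787-35256048, 4 E-boxes over the interval). Both were picked after their motifs were seen.

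The nearest TSS of the loci belonged to 903 of 22238 protein-coding genes (4.06%), of which 779 had 1 locus, 107 had 2, 15 had 3 and 2 had 4. No myogenin interval of the Ctl list was nearest to 384 of these genes (42.5%), and 364 (40.3%) also had a myogenin interval shared between conditions. Of 258 genes in lists for muscle structure, regulators and signaling, 42 (16.3%, 12.3 to 21.3) were nearest to a locus. Bexarotene-only distal intervals without p300 were nearest to 62 of the same genes (24.0%), with 7.29% of all genes. Counted by locus, 4.59% of loci lay nearest to a list gene and 4.03% of those without p300 (difference 0.561 points, -0.896 to 2.20), against 6.56% of shared intervals with p300 (-1.97, -3.75 to -0.114).

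**Figure D5:**
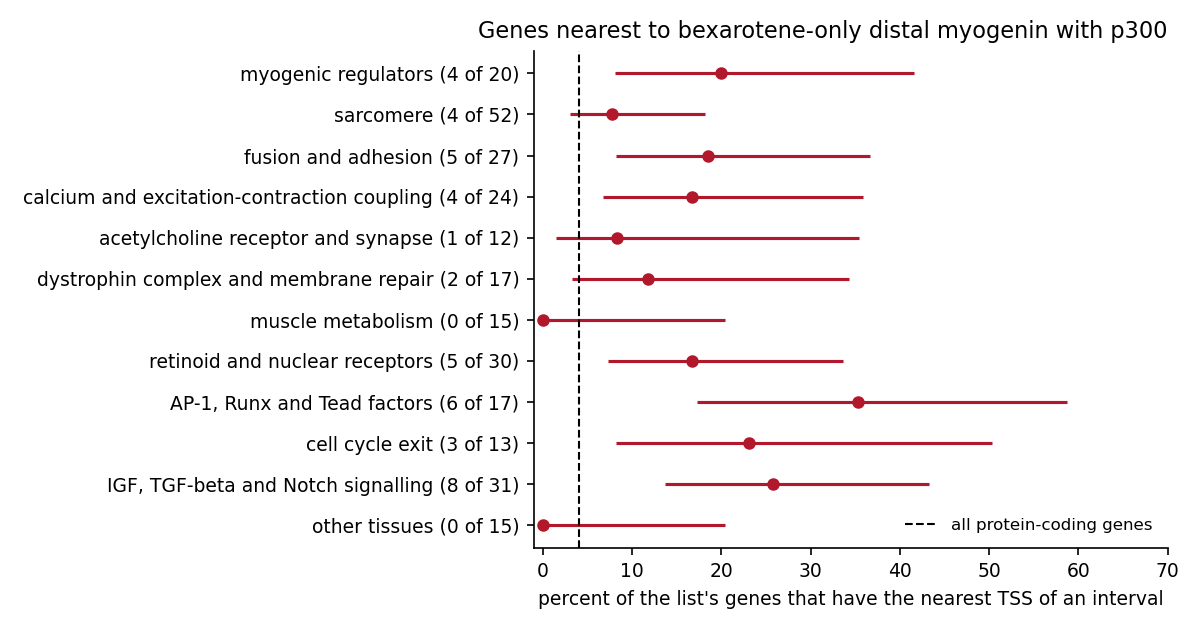
Percent of the genes in each list that have the nearest TSS of a bexarotene-only distal myogenin locus with p300 (x axis, points with 95% Wilson intervals) and the percent for all protein-coding genes (dashed line, 4.06%). The lists for AP-1, Runx and Tead factors and for IGF, TGF-beta and Notch signaling stand at 35.3% and 25.8%, with 17 and 31 genes, and the intervals of most lists overlap.

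By gene list, the shares moved with the way genes were assigned and with the set. For the AP-1, Runx and Tead list 35.3% of genes had the nearest TSS of a locus (all genes 4.06%). Another measure, a locus within 50 kb, gave 29.4% (all genes 5.54%). The nearest TSS of an interval without p300 belonged to 52.9% (all genes 7.29%). For the IGF, TGF-beta and Notch list these shares were 25.8%, 12.9% and 38.7%. In the first, 6 of 17 genes for AP-1, Runx and Tead factors had a locus, namely Cbfb, Fosl2, Junb, Runx1, Runx3 and Tead1. At Junb, an AP-1 subunit, the locus (chr8:87506282-87506449, at -3748 bp from the TSS) held a bZIP site and p300 was called in control only. At Fosl2, another AP-1 subunit, the locus (chr5:32441038-32441260) lay in intron 1, also with control p300 only. Of the 31 genes for IGF, TGF-beta and Notch signaling, 8 had loci, namely Acvr2a, Hes1, Igfbp2, Igfbp3, Smad3, Tgfb2, Tgfbr1 and Tgfbr2.

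Smad3, which transmits TGF-beta signals, had 2 loci in intron 1. The one at chr9:63590271-63590438 had control p300 only and 1 E-box, and the one at chr9:63591876-63592043 had p300 in both and a bZIP site. Tgfbr2, the type II TGF-beta receptor, had 2 loci far upstream of its TSS, both with p300 in both conditions. They lay at -92214 bp (chr9:116176514-116176681) and at -208442 bp (chr9:116292710-116292940). A control myogenin interval lay 94 bp from the latter. The locus at Hes1, a Notch target (chr16:30064294-30064461), lay at -1049 bp from the start of the protein-coding transcript, but only 93 bp from the start of another annotated transcript of the gene, so it is promoter-proximal by that start. In all, 35 of the 1046 loci lay within 1 kb of an annotated start that is not of a protein-coding transcript.

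Among sarcomere genes 4 of 52 had a locus (7.69%, 3.03 to 18.2), namely Actc1, Myom1, Tnni1 and Ttn. This interval includes the 4.06% of all genes. Actc1 encodes cardiac alpha-actin, which is expressed in differentiating myoblasts, and had 2 loci upstream, no shared interval, and a control myogenin interval no nearer than 28935 bp. The locus at chr2:113883463-113883672 had no E-box and touched p300 of both conditions at its edge only, by 40 bp in control and 5 bp with bexarotene. The locus at chr2:113886012-113886179 had p300 with bexarotene only and the single E-box shown above. At Tnni1, slow skeletal troponin I, the locus was 586 bp long in intron 2 (chr1:137691155-137691740) with no myogenin interval of the Ctl list nearest to the gene, and control p300 covered only its first part (chr1:137691123-137691281). At Myom1, an M-band protein, the locus lay in intron 5 (chr17:71388155-71388526) and control p300 covered its center.

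For fusion and adhesion 5 of 27 genes (18.5%, 8.18 to 36.7, with 4.06% of all genes) had a locus (Cdh2, Cdon, Gm7325, Myof and Ncam1). An interval without p300 was nearest to 22.2%, with 7.29% of all genes. Cdon, a receptor that promotes myogenic differentiation, had a locus in intron 11 with p300 in both conditions. Gm7325, which encodes the fusion peptide Myomixer, had a locus at -14834 bp (chr17:45753802-45753969) with no E-box, 344 bp from a control myogenin interval, and the end of a control p300 interval (chr17:45753025-45753881) covered only its first part. Of the 20 myogenic regulators 4 had a locus (8.07 to 41.6%), namely Eya1, Id2, Six4 and Tcf4. The same number was nearest to an interval without p300, with 7.29% of all genes. Within 50 kb, 2 of these regulators had a locus, with 5.54% of all genes.

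Of the 24 genes for calcium handling and excitation-contraction coupling, 4 (16.7%, 6.68 to 35.9) had a locus (Cacna2d1, Cacng1, Casq2 and Kcnn3), with 4.06% of all genes. Intervals without p300 were nearest to 29.2% of the list, with 7.29% of all genes. The Cacng1 locus lay in intron 1 (chr11:107575682-107575924) with p300 in both conditions and 2 E-boxes over the interval. The dystrophin complex list had 2 of 17 (Dtna and Sntb1) and the acetylcholine receptor and synapse list 1 of 12 (Dok7). These shares, 11.8% (3.29 to 34.3) and 8.33% (1.49 to 35.4), do not differ from that of all genes beyond counting error.

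Cell cycle exit genes had 3 of 13 (23.1%, 8.18 to 50.3), namely Btg1, Cdkn1a and Gadd45g, with 4.06% of all genes. The share for intervals without p300 was also 23.1%, but with 7.29% of all genes, so the equal shares have different all-gene values. Cdkn1a, the p21 inhibitor of cyclin-dependent kinases, had a locus at -27225 bp with control p300 only. Among 30 retinoid and nuclear receptor genes 5 (16.7%, 7.34 to 33.6) had a locus, with 4.06% of all genes. These 5 were Angptl4, Nr2f2, Pparg, Rara and Tgm2. Intervals without p300 were nearest to 6 of the 30, with 7.29% of all genes. The Angptl4 locus, near a gene that PPAR-RXR dimers are known to activate, lay at -2064 bp (chr17:33920501-33920668) with p300 in both conditions and 1 E-box. No gene of the 15 for muscle metabolism or of the 15 for other tissues was nearest to a locus, which with lists of this size allows up to 20.4%.

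The genes with most loci were Tomm20 and 2010111I01Rik with 4 each. The 4 at Tomm20, a subunit of the mitochondrial import receptor, lay downstream at distances from 63727 to 106049 bp, with p300 in both conditions at 2 of them and in control only at the others. Among genes with 3 loci, Loxl1, an enzyme of elastic fiber assembly, and Chst15, a chondroitin sulfotransferase, had no myogenin interval of the Ctl list. At Chst15 all 3 loci had p300 in both conditions. At Loxl1 the locus with p300 in both conditions lay in intron 2 (chr9:58143431-58143743) and the other 2 had p300 in control only.

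The loci were not tightly grouped. Another myogenin interval of either list lay within 10 kb of 37.8% (34.9 to 40.7), against 40.6% without p300 (difference -2.86 points, -6.46 to 0.796), 43.5% of shared intervals with p300 (-5.72, -9.58 to -1.81) and 45.8% of control-only intervals with p300 (-8.09, -13.2 to -3.01). The nearest control myogenin interval had a median gap of 38.6 kb (quartiles 8.18 and 141). Joining loci within 10 kb left 962 alone, with 36 pairs and 4 groups of 3. The tightest group was in intron 3 of Fam134b, where 3 loci spanned 1.38 kb (chr15:25844933-25846313). By chromosome, the loci made up from 11.3% (chromosome 4) to 22.6% (chromosome 14) of the bexarotene myogenin list.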

How the data were processed

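Myogenin and p300 ChIP-seq lists from 4 of the 8 samples were used; the input and H3K27me3 samples were not analysed here. According to the submitters' notes and methods, myogenin reads were aligned with BWA and p300 reads with Bowtie to mm9, duplicates were removed with Picard and peaks were called on each library with HOMER. The deposited lists hold positions only, so the authors' peak threshold is fixed, and differences in depth between libraries cannot be told apart from differences in binding. Coordinates are printed counted from 1. No column lacked a sample.

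Overlap required 1 bp. Flanking windows lay 2 kb from the center and held no myogenin interval. TSS were 45982 starts of protein-coding transcripts (GENCODE release 1 for mouse), where the study's methods named RefSeq. Sequence came from the mm9 genome. Intron numbers refer to the longest transcript of the gene at that position. Shares carry 95% Wilson intervals and differences 95% Newcombe intervals, and no test between conditions was possible with 1 library each.

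The members, the 12 gene lists (273 genes) and the settings were chosen with earlier results of these data known. Named genes were list genes with a locus, ordered by number of loci and then by length (up to 30), and the 10 genes with most loci; not all are printed. Lists were named in full, so a few genes beyond the first 30 appear by name. Sequences followed a rule of most E-boxes per p300 class and the longest loci with p300 in the bexarotene list only; the central 100 bp were printed, or the whole interval where these held no E-box and it was at most 300 bp long (Actc1 and Igfbp2 also whole); 2 longer ones with no marked motif there were left out, and some items are not reported here. Motif densities over the same 519 loci were added after seeing the data. Alternatives are given in the closing section. Python 3.11.15 with numpy 2.4.6, pysam 0.24.0 and matplotlib 3.10.9 was used, and the overlap, motif and interval functions were tested on simulated data.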

Additional observations from a re-analysis of the deposited data

How the results depend on the processing

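Restricting the list to intervals longer than the smallest left 441 loci, 410 genes, 61.9% with p300 in the bexarotene list, 61.0% with an E-box and 40.8% with a neighbor within 10 kb, an E-box difference of -9.96 points and a bZIP difference of 8.66 points. Intervals of the smallest length alone, an alternative added after seeing the data, gave 53.1% with bexarotene p300 and 48.3% with an E-box. With the myogenin center inside the p300 interval, 52.5% had bexarotene p300 and the E-box difference was -0.988 points. Over the whole interval 72.0% had an E-box (difference -1.19 points). The palindromic core alone gave 45.3% and -0.0185 points, any CANNTG 79.2% and a difference of 1.11 points in the opposite direction, and the non-palindromic core, added after seeing the data, -10.1 points. A bZIP window of 50 bp gave 11.8% and a difference of 6.06 points. Neighbors within 50 kb were found at 66.8%. The other 37 of 58 alternatives kept the value within its interval or, for counts, within 1.5 times.

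The non-palindromic E-box difference ran from -14.6 to -8.67 points and the Runx difference from 7.24 to 12.2 points over 6 alternatives of the selection, and every interval excluded 0. No paired analysis was possible because each condition has 1 library. The lists carry no tag counts, so a threshold effect in either list cannot be told apart from gain or loss of binding.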
